A study of Mus musculus with 9 samples.

Results

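The level of 10 genes was examined that are recurrently mutated in myelodysplastic syndrome, a clonal disorder in which stem cells of the bone marrow give rise to too few and abnormal blood cells. They were chosen by symbol as epigenetic, splicing, cohesin and transcription factor genes, with earlier results of these data known. The members are Dnmt3a, Tet2, Asxl1 and Ezh2 (epigenetic regulators), Sf3b1, Srsf2, U2af1 and Zrsr2 (splicing factors), Stag2 (a cohesin subunit) and Runx1 (a transcription factor). All 10 were found among the 47643 genes of the count table, and all 10 had enough counts to be among the 18205 genes tested. What was measured is the level of their transcripts in mouse cells, not their mutation.

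RNA was sequenced from donor-derived long-term hematopoietic stem cells (LT-HSCs), sorted as Lin-, cKit+, Sca1+, Flk2-, CD48-, CD150+ cells from the bone marrow of lethally irradiated mice that had received C57BL/6 marrow of 1 of 3 genotypes, with 3 libraries each. WT cells carried Mx1-Cre alone. δKO cells, labelled P110d in the count table, were Pik3ca lox-lox, Pik3cb lox-lox and Pik3cd-/- with no Cre. TKO cells had those alleles with Mx1-Cre. Pik3ca, Pik3cb and Pik3cd encode catalytic subunits of the class IA phosphatidylinositol 3-kinase (PI3K). All recipients received 2 injections of 250 μg of pIpC 48 hours apart, which induces the interferon-responsive Mx1 promoter, and marrow was taken 4 weeks later. δKO libraries therefore differ from the WT and TKO libraries by the absence of Cre as well, and an effect of Cre itself cannot be told apart from that of the excision of Pik3ca and Pik3cb when TKO is compared with δKO. Marrow cells from 7 recipients per genotype were pooled before the stain, although the labels call the 3 libraries biological replicates. If they came from 1 pool, the p-values measure only the spread between these libraries, which may be technical. The labels give no age, and by the study's text donors and recipients were young mice, weeks old at transplantation. One δKO library is called unnumbered because its number in the count table is in no label.

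In the cell, Dnmt3a adds methyl groups to cytosines in DNA and Tet2 oxidizes them, which leads to their removal. Ezh2 is the catalytic subunit of Polycomb repressive complex 2 (PRC2), a histone methyltransferase, and Asxl1 is a cofactor of the Bap1 deubiquitinase, which acts on histone H2A. In splicing, U2af1 recognizes the AG dinucleotide at the end of an intron, Sf3b1 is part of the U2 snRNP that binds the branch point, Zrsr2 serves the minor (U12-type) introns, and Srsf2 binds exonic enhancers as a member of the SR protein family. Stag2 is a subunit of the ring-shaped cohesin complex that holds chromatin loops and sister chromatids, and Runx1 with its partner Cbfb is required for the emergence of blood stem cells.

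Library totals ranged from 31300343 to 60386097 reads on genes, and 18180 to 22703 genes had at least 1 count. Values are CPM (counts relative to the library total), scaled with edgeR's TMM factors. Counts of the members ranged from 989 to 30385 reads per library. The cDNA was amplified and the number of molecules behind these reads is not known, so the precision of a value is taken from the spread between libraries. All 11 HSC marker genes examined, among them Kit, Ly6a and Mecom, were detected in every library. Cd48 and Flt3, whose proteins the sort selects against, were detected in every library as well, at a summed 12.9 to 133 CPM with the highest value in WT 1. The targeted gene Pik3cb was measured at 44.6 to 63.6 CPM in WT, at 33.2 to 101 in δKO and at 25.5 to 33.9 in TKO, so that δKO 2, at 33.2, lay within the TKO range. Pik3ca was not lower in TKO (60.2 against 57.1 CPM in the mean). Pik3cd ranged from 98.2 to 139 CPM in WT, from 38.5 to 91.2 in δKO and from 71.2 to 73.5 in TKO. Reads were counted over whole genes, so these levels do not show the loss of single exons. Within genotypes δKO 1 stood apart most. Its Pearson correlation across genes (log2 CPM) was 0.831 with δKO 2 and 0.802 with the unnumbered library. δKO 2 and the unnumbered library were at 0.863 with each other, and TKO 1 and TKO 2 at 0.856. In δKO 1, the library with the fewest genes detected, 9 of the 10 members were above the mean of their genotype and the median deviation of the 10 was 0.35 on the log2 scale. Values of members that change direction without this library are named, and the counts and medians over the members and over all partner genes are given with and without it.

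For comparison between genes, levels were divided by the length of the union of exons in the GENCODE M21 annotation of mm10. In WT, Srsf2 was the highest of the members at 73.0 ± 10.4 CPM per kb (SD, n = 3), followed by Sf3b1 at 39.6 ± 5.08 and Runx1 at 19.1 ± 0.267. The ranges of these 3 genes overlapped neither each other nor that of the next gene. U2af1 followed at 17.5 ± 0.963, Stag2 at 15.5 ± 1.81, Asxl1 at 14.4 ± 0.604, Ezh2 at 13.5 ± 2.10 and Dnmt3a at 12.6 ± 2.06 CPM per kb. Tet2 at 9.25 ± 2.28 and Zrsr2 at 6.21 ± 1.88 CPM per kb were the lowest. From U2af1 to Zrsr2 each gene's range overlapped that of its neighbour in this order. By mean CPM over the 9 libraries, the members lay between percentiles 78.3 and 99.1 of the genes tested. With the longest transcript as length only 3 of the 10 kept their rank.

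**Figure D1:**
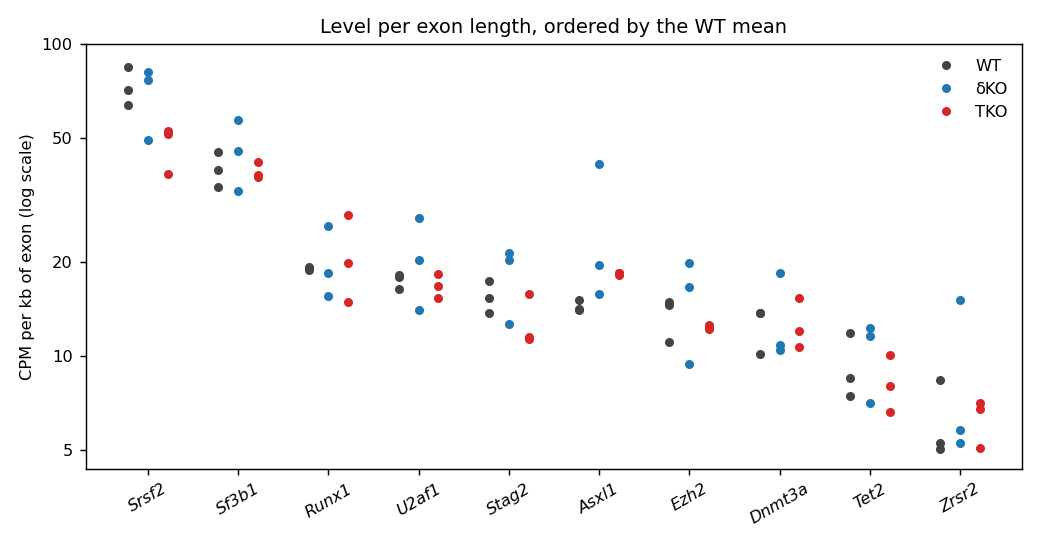
Level of each gene in CPM per kb of exon (log scale), with 1 point per library and genes ordered by the WT mean. Srsf2 and Sf3b1 lie above the other 8 members in WT, and Zrsr2 has the lowest WT mean, 6.21 CPM per kb.

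No member was called different between genotypes at an adjusted p under 0.05 and more than 2-fold, in any of the 3 comparisons, by edgeR's quasi-likelihood test or by DESeq2 on all 9 libraries or on the genotypes compared. The share of all tested genes called by edgeR was 0.00549% in TKO versus WT (1 gene), 0% in TKO versus δKO (0 genes, with 1851 genes at an unadjusted p under 0.05) and 0.00549% in δKO versus WT (1 gene). DESeq2 on all 9 libraries called 0.657%, 3.12% and 1.03% of genes in these comparisons, and DESeq2 on the genotypes compared called 3.08%, 1.52% and 1%. An unadjusted p under 0.05 from edgeR was found for 1 member in TKO versus WT (Srsf2), where 4.19% of all genes had one. It was found for 0 members in TKO versus δKO, where 10.2% of genes had one, and for 1 member in δKO versus WT (Asxl1), where 7.01% had one. The libraries of TKO and WT did not overlap for 2 members, Asxl1 and Srsf2, and for 14.4% of all genes. TKO and δKO overlapped for all 10 members and were apart for 11.7% of genes, and δKO and WT were apart for Asxl1 and for 11.5% of genes. With 3 libraries against 3, the exact two-sided permutation test gave p = 0.1 for each of these members, the smallest it can give.

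The 2 members with an unadjusted p under 0.05 or with genotypes apart, Srsf2 and Asxl1, are shown with their promoters. These run from 250 bases before to 50 bases after the start in RefSeq (GRCm38.p6), written 5′ to 3′ on the strand of the gene. Capitals mark a match to TATAAA in Srsf2 and to CCGGAAG, the core of an ETS factor site, in Asxl1, where it lies on the opposite strand. The Srsf2 promoter is chr11:116853045-116853344 (minus strand) and that of Asxl1 is chr2:153345580-153345879 (plus strand).
Srsf2: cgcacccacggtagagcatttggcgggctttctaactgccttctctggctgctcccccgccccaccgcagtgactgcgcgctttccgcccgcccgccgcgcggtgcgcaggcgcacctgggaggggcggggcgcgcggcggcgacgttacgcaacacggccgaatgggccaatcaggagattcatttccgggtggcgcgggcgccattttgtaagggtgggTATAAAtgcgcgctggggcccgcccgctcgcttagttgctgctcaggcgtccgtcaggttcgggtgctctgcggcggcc
Asxl1: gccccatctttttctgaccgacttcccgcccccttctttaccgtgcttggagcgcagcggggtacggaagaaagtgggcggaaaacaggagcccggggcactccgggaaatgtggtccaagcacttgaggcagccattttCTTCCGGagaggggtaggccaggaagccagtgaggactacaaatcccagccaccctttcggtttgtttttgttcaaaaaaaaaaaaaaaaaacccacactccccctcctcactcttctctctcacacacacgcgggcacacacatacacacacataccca
The Srsf2 promoter holds 39 CpG dinucleotides, at percentile 96.1 of all RefSeq promoters, and 69.3% G or C. That of Asxl1 holds 13 CpG, at percentile 63.7, and 54% G or C, with a run of A bases before the start. RefSeq promoters were found for 9 of the 10 members (13 starts, none given for Stag2). On both strands, GTAAACA, the core of a FoxO site, was in 3.65% of 32851 promoters, CACGTG, an E-box, in 7.15%, CCGGAAG in 8.86% and TATAAA in 13.6%, with no overlap between these motifs in the member promoters. No member promoter held GTAAACA, and CACGTG was in 1 of the 3 starts of Dnmt3a and 1 of the 2 of Runx1. Letters absent from these windows say nothing of whether a factor binds.

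Among the splicing factors, Srsf2 (ENSMUSG00000034120.18) lies on chromosome 11 of mm10 from 116849901 to 116853094, on the minus strand. It was measured at 188, 249 and 211 CPM in WT 1, 2 and 3, at 241, 227 and 145 CPM in δKO 1, δKO 2 and the unnumbered δKO library, and at 113, 156 and 153 CPM in TKO 1, 2 and 3. All 3 TKO libraries were below all 3 WT libraries, but the unnumbered δKO library lay among the TKO libraries. Averaged by genotype (± SD, n = 3), Srsf2 stood at 216 ± 30.8 CPM for WT, 204 ± 51.9 for δKO and 140 ± 23.7 for TKO. In TKO versus WT the log2 fold change was −0.62 (SE, the standard error, 0.259, with a 95% interval from −1.19 to −0.055). By edgeR the unadjusted p was 0.0343 and the p adjusted over all genes by Benjamini-Hochberg was 1.00. The value did not change sign in any of 20 alternative settings, in which it ranged from −0.71 to −0.49, and its adjusted p ranged from 0.142 to 1.00. In TKO versus δKO it was −0.54 (SE 0.259, adjusted p = 0.498 from edgeR), and in δKO versus WT it was −0.078 (SE 0.258, adjusted p = 0.972). Exons of 2 genes on the opposite strand, Mettl23 and Mfsd11, cover 15.6% and 9.74% of the Srsf2 exons, and no strand setting is stated for the counting, so their reads cannot be told apart there. In TKO versus WT the log2 fold change was −0.23 for Mettl23 and 0.86 for Mfsd11 (adjusted p = 1.00 for both from edgeR), and both were at lower levels, 20.1 and 13.6 CPM in TKO. Along with Srsf2, the summed level of 5 proliferation genes (Mki67, Top2a, Cdk1, Ccnb1 and Plk1) was 1334 to 1428 CPM in TKO, 1816 to 2994 in δKO and 1875 to 2559 in WT. The summed level of 10 neutrophil genes was 170 to 3413 CPM in TKO, 277 to 12803 in δKO and 5555 to 12868 in WT, with all 10 genes detected in every library. The neutrophil sum was lowest in TKO 1 (170 CPM), where Srsf2 was lowest too (113 CPM). It was next lowest in δKO 1 (277 CPM), where Srsf2 was at 241 CPM, and it was 12803 CPM in the unnumbered δKO library, where Srsf2 was at 145 CPM. The share of counts on the mitochondrial rRNA genes mt-Rnr1 and mt-Rnr2 was 8.64%, 15.7% and 6.88% in TKO 1, 2 and 3 and 14.4% to 16.8% in WT. It was 9.63% in δKO 1, 16.9% in δKO 2 and 17.1% in the unnumbered library. The part of these markers and of this share in the Srsf2 result was not tested. In bulk samples, fewer cells of a type and less RNA per cell cannot be told apart.

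Sf3b1 (ENSMUSG00000025982.13, chromosome 1, 54985169 to 55027481) was measured at 510, 395 and 447 CPM in the WT libraries, at 518, 384 and 650 CPM in the δKO libraries in the same order as above, and at 425, 433 and 474 CPM in the TKO libraries. The TKO libraries lay within the WT range. The log2 fold change in TKO versus WT was −0.022 (95% interval −0.526 to 0.483), so a difference of up to about this size in either direction was not resolved. U2af1 (ENSMUSG00000061613.12, chromosome 17, 31647081 to 31658892) was measured at 46.5, 47.2 and 42.6 CPM in WT, at 71.8, 52.8 and 36.5 CPM in δKO, and at 47.4, 43.4 and 39.9 CPM in TKO. Its lowest and highest values of the 9 were both in δKO, and its log2 fold change in TKO versus WT was −0.060 (95% interval −0.731 to 0.612). U2af1 has 3 near-identical processed pseudogenes elsewhere in the genome, of which the 2 longest share 726 and 721 bases with it at 96.4% and 96.7% identity, so that its count is uncertain where reads could be split among them. Zrsr2 (ENSMUSG00000031370.12, chromosome X, 163935443 to 163958661) was measured at 37.8, 60.2 and 36.0 CPM in WT, at 108, 41.8 and 37.7 CPM in δKO, and at 51.0, 48.6 and 36.3 CPM in TKO. Apart from δKO 1 the libraries of the 3 genotypes shared a range, and the log2 fold change in TKO versus WT was 0.020 (95% interval −0.900 to 0.939). In TKO versus δKO the log2 fold change of Zrsr2 was −0.47 and became 0.19 without δKO 1.

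Among the epigenetic regulators, Asxl1 (ENSMUSG00000042548.13) spans 153345829 to 153404007 of chromosome 2, on the plus strand. It was measured at 112, 105 and 104 CPM in WT 1, 2 and 3, at 306, 118 and 146 CPM in δKO 1, δKO 2 and the unnumbered library, and at 137, 137 and 136 CPM in TKO 1, 2 and 3. All 6 libraries labelled Pik3cd-/- were above all 3 WT libraries, and the values within WT and within TKO lay close together. Averaged by genotype (± SD, n = 3), Asxl1 stood at 107 ± 4.50 CPM for WT, 190 ± 101 for δKO and 137 ± 0.868 for TKO. In δKO versus WT the log2 fold change was 0.82 (SE 0.323, 95% interval 0.117 to 1.53), with an adjusted p of 0.699 from edgeR and an unadjusted p of 0.0260. Without δKO 1 it was 0.30, and over the 20 alternatives it ranged from 0.30 to 1.08 with adjusted p from 0.242 to 1.00. In TKO versus WT it was 0.35 (SE 0.321, adjusted p = 1.00 from edgeR), from 0.21 to 0.38 over the alternatives. TKO versus δKO gave −0.47 (SE 0.322, adjusted p = 0.628), which became 0.049 without δKO 1. These comparisons share libraries and are not independent of each other. The summed level of the 11 HSC marker genes was 1222 to 1439 CPM in WT, 1212 to 2607 in δKO and 1690 to 2076 in TKO, and its part in the Asxl1 result was not tested. An antisense-strand transcript, 2500004C02Rik, covers 2.65% of the Asxl1 exons and was measured at 1.19 to 11.4 CPM over the 9 libraries.

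Dnmt3a (ENSMUSG00000020661.15, chromosome 12, 3806007 to 3914443) was measured at 228, 229 and 169 CPM in WT, at 174, 181 and 307 CPM in δKO, and at 255, 200 and 178 CPM in TKO. Tet2 (ENSMUSG00000040943.12, chromosome 3, 133463679 to 133545139) was measured at 199, 143 and 126 CPM in WT, at 207, 119 and 195 CPM in δKO, and at 169, 112 and 135 CPM in TKO. For both enzymes the libraries of the 3 genotypes overlapped. The log2 fold change in TKO versus WT was 0.015 for Dnmt3a (95% interval −0.589 to 0.619) and −0.17 for Tet2 (95% interval −0.804 to 0.464). For Dnmt3a it changed sign under 4 of the 20 alternatives. Ezh2 (ENSMUSG00000029687.16, chromosome 6, 47530139 to 47595341) was measured at 74.2, 99.6 and 97.0 CPM in WT, at 132, 111 and 62.7 CPM in δKO, and at 83.9, 81.3 and 81.8 CPM in TKO. Its TKO libraries lay within the range of WT, with a SD of 1.34 CPM against 14.0 in WT and 35.7 in δKO. The log2 fold change of Ezh2 was −0.13 in TKO versus WT (95% interval −0.775 to 0.510) and −0.31 in TKO versus δKO (adjusted p = 0.740 from edgeR). The latter was −0.084 without δKO 1 and −0.57 without the unnumbered library.

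Stag2 (ENSMUSG00000025862.14, chromosome X, 42149317 to 42277185) was measured at 143, 114 and 127 CPM in WT, at 168, 105 and 176 CPM in δKO, and at 93.7, 94.9 and 130 CPM in TKO. TKO 1 and 2 were the lowest of the 9 libraries, while TKO 3 lay within the WT range. The log2 fold change of Stag2 was −0.27 in TKO versus WT (95% interval −0.852 to 0.316) and −0.49 in TKO versus δKO (SE 0.268, adjusted p = 0.548 from edgeR), and it kept its sign under the 20 alternatives in both. Runx1 (ENSMUSG00000022952.16, chromosome 16, 92601466 to 92826149) was measured at 232, 230.5 and 226 CPM in WT, at 313, 222 and 187 CPM in δKO, and at 239, 179 and 341 CPM in TKO. The SD of Runx1 was 3.21 CPM for WT, against 64.9 for δKO and 81.9 for TKO. The log2 fold change of Runx1 in TKO versus WT was 0.14 (95% interval −0.466 to 0.746) and became −0.13 without TKO 3.

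**Figure D2:**
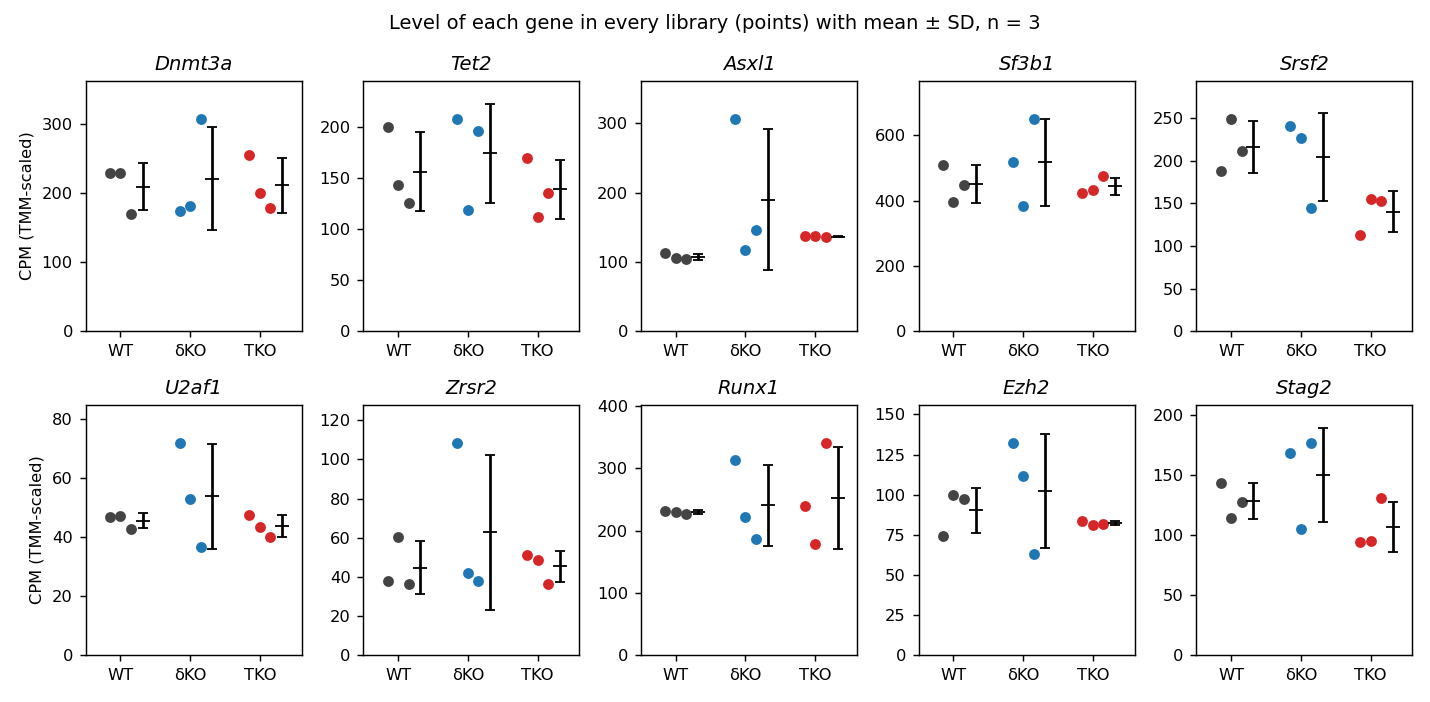
Level of each member in CPM (axes start at 0), with 1 point per library (left to right 1, 2 and 3 or unnumbered) and, to their right, the mean ± SD of each genotype (n = 3). Srsf2 in TKO lies below all WT points, and Asxl1 in TKO and δKO lies above them, with the highest Asxl1 value, 306 CPM, in δKO 1.

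Of the 10 members, 4 were higher and 6 lower in the mean of TKO than of WT, with a median log2 fold change of −0.041 against 0.017 over all tested genes. In this comparison they stood at 2 and 8 with upper-quartile factors (median −0.055) and at 2 and 8 with genes detected as a covariate (median −0.096). In TKO versus δKO 1 was higher and 9 were lower, with a median of −0.32 against −0.055 over all genes, of which 52.8% were lower. In δKO versus WT 9 were higher and 1 lower, with a median of 0.19 against 0.046 over all genes, of which 47.2% were lower. Without δKO 1 the members stood at 3 higher and 7 lower in TKO versus δKO, with a median of −0.13 against 0.073 over all genes, of which 46.4% were lower. In δKO versus WT they then stood at 5 and 5, with a median of −0.0071 against −0.046 over all genes, of which 53% were lower. With upper-quartile factors the counts were 2 and 8 (median −0.16) and 6 and 4 (median 0.020), and with genes detected as a covariate 1 and 9 (median −0.095) and 5 and 5 (median 0.0037). The last 2 comparisons share the δKO libraries, and the means of these were set in part by δKO 1, which was the highest of all 9 libraries for Tet2, Asxl1, U2af1, Zrsr2 and Ezh2, and by the unnumbered library, which was the highest for Dnmt3a, Sf3b1 and Stag2. δKO 2 was the highest for none. The spread within a genotype was largest in δKO for 9 members and in TKO for Runx1. The members' SD within genotypes ranged from 0.249 to 0.561 on the log2 scale, against a median of 0.890 over all tested genes. The members are of high level (percentiles 78.3 to 99.1 of mean CPM), and their SD was not compared with that of genes of like level. None of the 30 log2 fold changes was called in any alternative.

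**Figure D3:**
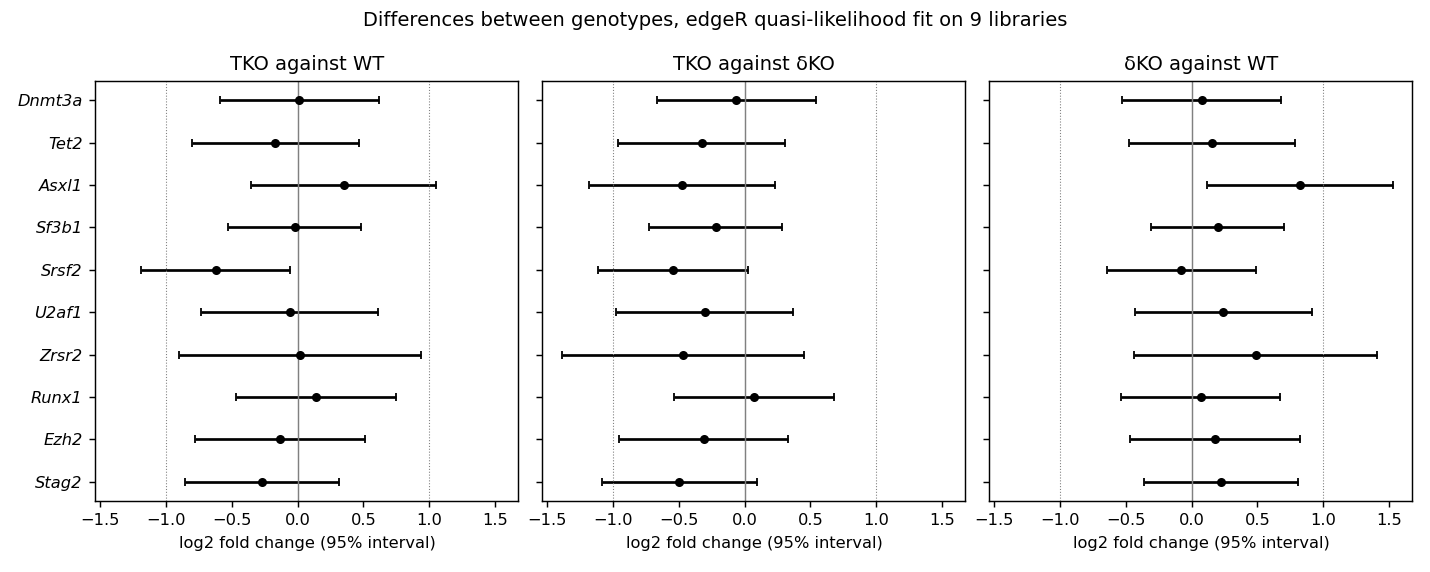
Log2 fold change of each member (point) with its 95% interval (bar) in the 3 comparisons, from edgeR's fit to 9 libraries, with dotted lines at a 2-fold difference. The interval leaves out 0 for Srsf2 in TKO versus WT (−1.19 to −0.055) and for Asxl1 in δKO versus WT (0.117 to 1.53).

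The ratio of a member to a related gene within 1 library does not depend on the scaling between libraries, and 10 such ratios of counts are given as a description, with no test. Zrsr2 to Zrsr1, its close relative, was 3.41 to 6.63 in WT, 5.25 to 7.57 in δKO and 1.88 to 2.95 in TKO, so all 3 TKO libraries were below all 6 others. The value beside it, that of Zrsr1, was at a log2 fold change of 1.09 in TKO versus WT (adjusted p = 1.00 from edgeR) and 1.11 versus δKO (adjusted p = 0.498), while that of Zrsr2 was 0.020 and −0.47. U2af1 to U2af2, the subunits of the U2AF heterodimer, was 0.367 to 0.472 in WT, 0.170 to 0.410 in δKO and 0.270 to 0.317 in TKO. Here TKO was below WT, with U2af2 at 90.1 to 127 CPM in WT and 135 to 176 in TKO. Srsf2 to Srsf1, another SR protein, was 1.09 to 1.33 in WT, 0.651 to 1.28 in δKO and 0.564 to 0.975 in TKO. Asxl1 to Asxl2 was 0.695 to 0.771 in WT, 0.811 to 2.77 in δKO and 0.809 to 0.857 in TKO. For Srsf2 TKO was again below WT, and for Asxl1 both other genotypes were above WT. How often such ratios separate genotypes over all gene pairs was not computed. For Dnmt3a to Dnmt3b, Tet2 to Tet3, Sf3b1 to Sf3b3 (a partner in the same complex, not a relative), Runx1 to Runx3, Ezh2 to Ezh1 and Stag2 to Stag1 the genotypes overlapped in every comparison.

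**Figure D4:**
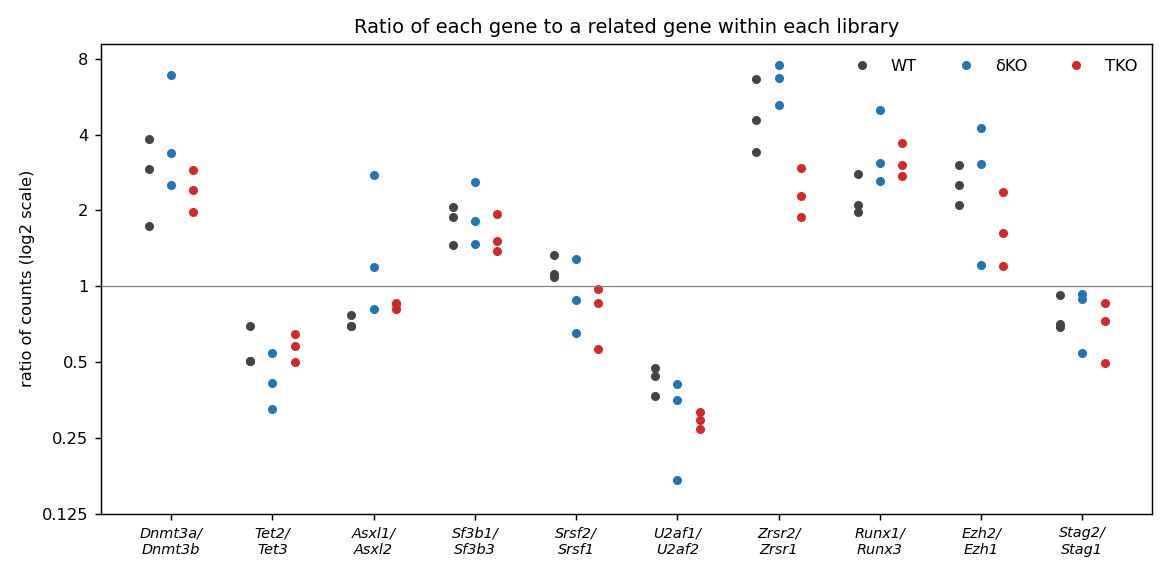
Ratio of the counts of each member to a related gene in each library (log2 scale), with 1 point per library. The ratio of Zrsr2 to Zrsr1 is 1.88 to 2.95 in TKO, below all WT and δKO points, and that of Asxl1 to Asxl2 is below 0.8 in WT only.

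Genes that work with the members were examined in 9 lists by function, with 108 genes, of which 104 were tested. Not tested for low counts were Dnmt3l, Asxl3, U2af1l4 and Wt1. None of the 104 was called by edgeR in any comparison. An unadjusted p under 0.05 was found for 0 higher and 2 lower genes in TKO versus WT, for 3 higher and 8 lower in TKO versus δKO, and for 6 higher and 1 lower in δKO versus WT. These are 1.92%, 10.6% and 6.73% of the 104, beside 4.19%, 10.2% and 7.01% of all genes. They include Runx1t1, whose counts were low, among the 3 higher genes in TKO versus δKO and as the 1 lower gene in δKO versus WT. Without δKO 1 they were 1 higher and 2 lower (2.88%, beside 7.61% of all genes), 5 and 6 (10.6%, beside 12.2%) and 3 and 1 (3.85%, beside 5.65%). In TKO versus WT 53 were higher and 51 lower (median 0.0091), in TKO versus δKO 36 were higher and 68 lower (median −0.12), and in δKO versus WT 68 were higher and 36 lower (median 0.16). The last 2 comparisons share the δKO libraries, and without δKO 1 they gave 43 higher and 61 lower (median −0.055, against 0.073 over all genes) and 62 and 42 (median 0.095, against −0.046).

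In the lists of the splicing factors, 6 of the 12 SR protein and related genes were higher and 6 lower in TKO versus WT (median log2 fold change −0.026), the comparison in which Srsf2 was at −0.62. None of these 12 genes had an unadjusted p under 0.05 in it, and Srsf1 was at 0.028, Srsf3 at −0.25 and Srsf7 at −0.27. In TKO versus δKO 2 of the 12 were higher and 10 lower (median −0.32, or −0.20 without δKO 1), and in δKO versus WT 9 and 3 (median 0.24, or 0.097 without it). Luc7l2, a U1 snRNP-associated gene that is itself mutated in myeloid disease, was at −0.48 in TKO versus δKO and 0.49 in δKO versus WT, and Srsf4 at −0.68 and 0.77. Without the unnumbered library Srsf4 was at −0.17 and 0.25. The 12 genes of the list of SF3A, SF3B and other splicing factors stood at 6 higher and 6 lower in TKO versus WT (median 0.059), at 5 and 7 in TKO versus δKO (median −0.063, or −0.25 without δKO 1) and at 8 and 4 in δKO versus WT (median 0.19). In these comparisons Sf3b2 was at 0.16, −0.40 and 0.57 and Sf3b6 at −0.34, −0.66 and 0.31. Without the unnumbered library Sf3b2 was at −0.20 in TKO versus δKO and 0.36 in δKO versus WT. Of the 10 tested genes of the 3′ splice site and minor spliceosome, 4 were higher and 6 lower in TKO versus WT (median −0.22) and 3 and 7 in TKO versus δKO (median −0.14, or −0.27 without δKO 1). The counts in δKO versus WT were 5 and 5 (median 0.092), or 4 and 6 without δKO 1 (median −0.14). U2af2 was at 0.47, −0.29 and 0.76 in the 3 comparisons, and Snrnp48, a protein of the minor spliceosome, at −0.40, −1.04 and 0.64. Without δKO 1, Snrnp48 was at −0.68 in TKO versus δKO and 0.27 in δKO versus WT, and Sf3b6 at −0.23 and −0.11.

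In the lists of the epigenetic regulators, 3 of the 8 tested DNA methylation genes were higher and 5 lower in TKO versus WT (median −0.081), 2 and 6 in TKO versus δKO (median −0.24), and 5 and 3 in δKO versus WT (median 0.064). Without δKO 1 the last 2 were 4 and 4 (median 0.023) and 4 and 4 (median 0.034). Dnmt3b, the other de novo methyltransferase, was at 0.64 in TKO versus δKO and Tet3 at −0.79 (adjusted p = 0.482 and 0.465 from edgeR), and Tet3 was at −0.39 without δKO 1. Of the 9 tested genes of the Asxl and Bap1 deubiquitinase list, 4 were higher and 5 lower in TKO versus WT (median −0.058), 5 and 4 in TKO versus δKO (median 0.089) and 5 and 4 in δKO versus WT (median 0.025). Without δKO 1 the last was 4 and 5 (median −0.072). Bap1 itself was at −0.096 in TKO versus WT, −0.80 in TKO versus δKO and 0.70 in δKO versus WT, and its highest value of the 9 libraries, 136 CPM, was in δKO 1. Without that library Bap1 was at −0.55 and 0.45 in the last 2. Ogt, the O-GlcNAc transferase, was at 0.49, 0.17 and 0.32. Of the 10 PRC2 genes, 7 were higher and 3 lower in TKO versus WT (median 0.083), 3 and 7 in TKO versus δKO (median −0.18) and 7 and 3 in δKO versus WT (median 0.19). Rbbp7 was at 0.12, −0.32 and 0.44 in these, with −0.12 in TKO versus δKO when TKO 3 was left out. Aebp2 was at 0.15 in TKO versus WT and at −0.85 in TKO versus δKO, or −0.28 without δKO 1. Aebp2 ranged from 79.4 to 243 CPM in δKO alone, and its value in δKO versus WT was 1.00, or 0.43 without δKO 1.

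Of the 13 cohesin genes, 6 were higher and 7 lower in TKO versus WT (median −0.012), 5 and 8 in TKO versus δKO (median −0.16, or −0.040 without δKO 1) and 9 and 4 in δKO versus WT (median 0.13). Rad21, the kleisin subunit of the ring, was measured at 279 to 402 CPM in WT, 349 to 654 in δKO and 241 to 296 in TKO. Its log2 fold change in TKO versus δKO was −0.95 (SE 0.265, adjusted p = 0.465 from edgeR), without overlap of the libraries, and Cdca5, which protects cohesin in dividing cells, was at −0.85, or −0.55 without TKO 3 and −1.33 without TKO 2. The summed level of the 5 proliferation genes given above was 1334 to 1428 CPM in TKO and 1816 to 2994 in δKO. The part of these genes in the Rad21 and Cdca5 values was not tested. Of the 6 partners and relatives of Runx1, 2 were higher and 4 lower in TKO versus WT (median −0.022), 5 and 1 in TKO versus δKO (median 0.23) and 1 and 5 in δKO versus WT (median −0.38). Cbfa2t2, a corepressor, was at 0.17, 0.67 and −0.50, the last −0.32 without WT 2. Runx1t1, the fusion partner of RUNX1 in leukemia, had 158, 288 and 2 counts in WT, 0, 1 and 0 in δKO and 20, 37 and 44 in TKO. These are too few for a fold change to be read, although Runx1t1 is in the counts and medians of this list and of all partner genes. Of 24 other tested genes mutated in myelodysplasia, 15 were higher and 9 lower in TKO versus WT (median 0.12), 6 and 18 in TKO versus δKO (median −0.091) and 19 and 5 in δKO versus WT (median 0.20). Without δKO 1 the last 2 were 11 and 13 (median −0.059) and 15 and 9 (median 0.12). Csf3r, the granulocyte colony-stimulating factor receptor, was measured at 155 to 266 CPM in WT, 175 to 262 in δKO and 50.9 to 142 in TKO, with a log2 fold change of −1.03 in TKO versus WT (SE 0.360, adjusted p = 1.00 from edgeR). Cebpa, a granulocyte transcription factor, was measured at 13.2 to 49.6 CPM in WT, 0.519 to 66.1 in δKO and 1.87 to 8.66 in TKO, with a log2 fold change of −2.70 (SE 1.16, adjusted p = 1.00). In δKO 1, where the summed neutrophil level given above was lowest among the δKO libraries (277 CPM), Csf3r was at 205 CPM, above every TKO library, and Cebpa was at 0.519 CPM, below every TKO library. In TKO 1, with the lowest sum of all 9 (170 CPM), Csf3r was at 50.9 CPM, the lowest of the 9, and Cebpa at 1.87 CPM. The part of the neutrophil genes in these values was not tested.

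**Figure D5:**
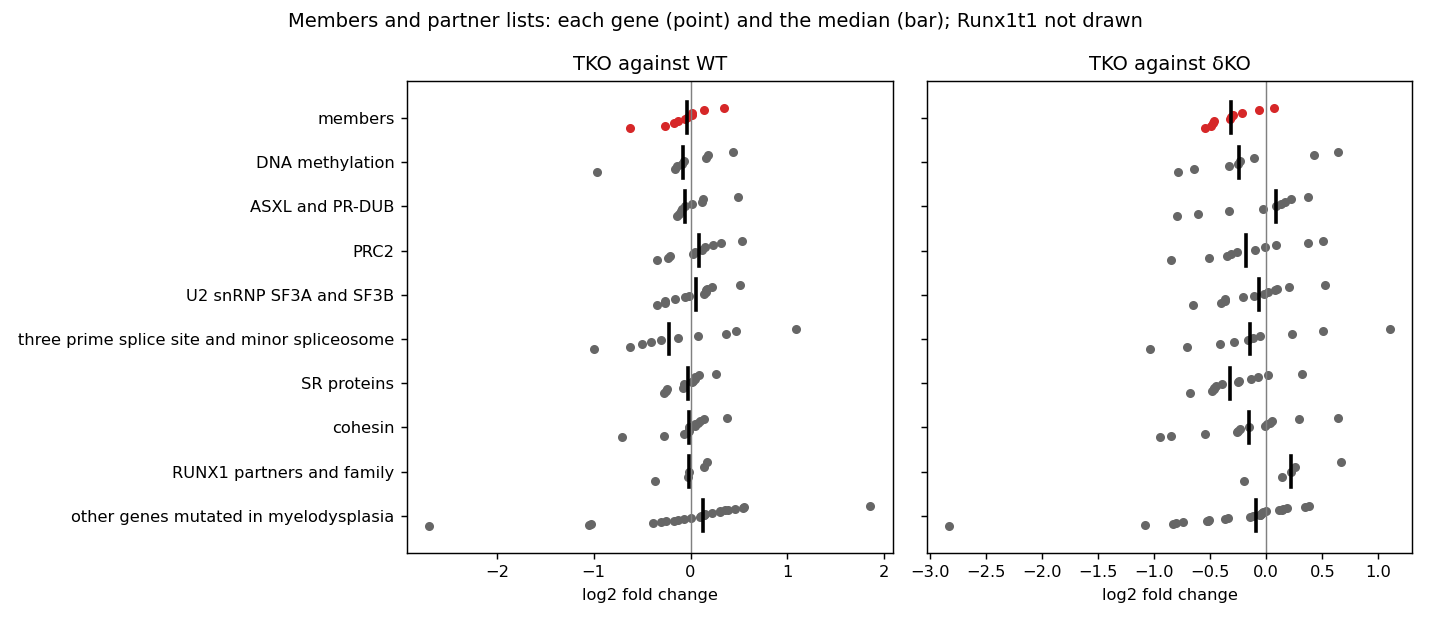
Log2 fold change of the 10 members (red) and of the genes of each list (grey), with 1 point per gene and a bar at the median. Runx1t1 is not drawn and is left out of the bar of its list. In TKO versus WT the medians lie between −0.22 and 0.12, and in TKO versus δKO those of the members and of the SR proteins are both at −0.32.

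The gene whose pattern over the 9 libraries was most like that of a member is given for 9 members, from among 10774 tested genes averaging 5 CPM or more, as the smallest root mean square difference of log2 CPM centered on the gene's own mean. It was Zfp142 for Dnmt3a (0.0943), Mllt10 for Asxl1 (0.108), Vcpip1 for Sf3b1 (0.10) and Nol7 for Srsf2 (0.147). It was Cbx5 for U2af1 (0.116), Ppp5c for Zrsr2 (0.179), Zfp512b for Runx1 (0.119), Sec11a for Ezh2 (0.0946) and Fryl for Stag2 (0.111). None of these 9 genes was itself a member.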

How the data were processed

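LT-HSC RNA of 3 genotypes (3 libraries each, 9 in all) was measured. Per the labels, the authors amplified cDNA with the Ovation kit, and the submitters' processing notes name Trim Galore 0.3.7, FastQC 0.11.4, STAR 2.5.1b, DESeq2 and the mm10 build. The annotation release, the counting tool's strand setting and how the 2 technical runs per library were joined are not given in the sources used here. The deposited raw counts are whole reads per gene, without normalization. The authors also deposited a normalized signal (counts divided by size factors), used in 1 alternative. Members were matched by symbol to GENCODE M21, with 3 of 10 identifiers differing in version. Of 47643 genes, 19696 had no count.

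Genes were kept with filterByExpr (count minimum 10, minimum total 15), which left 18205. edgeR 4.0.16 fitted its quasi-likelihood model with TMM factors to 9 libraries (R 4.3.3), without a block and with 1 mean for each genotype. p-values were two-sided and adjusted by Benjamini-Hochberg over all tested genes, and genes were called at an adjusted p under 0.05 and more than 2-fold. 95% intervals used the t quantile 2.19. DESeq2 1.42.0 and limma 3.58.1 (voom with quality weights, or log2(normalized value + 1)) were alternatives. Copies were sought with BLAST 2.17.0 (at least 100 bases at 95% identity), and figures drawn with matplotlib 3.10.9. Promoters are RefSeq's. The scripts were tested on simulated data.

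The members and the lists were chosen with earlier results of these data known. All members are named, with from each partner list the 2 genes with the smallest unadjusted p and the gene nearest in pattern to each member (that of Tet2 is not reported here). Srsf1, Srsf3, Srsf7 and Zrsr1 were named after their values were seen.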

Additional observations from a re-analysis of the deposited data

How the results depend on the processing

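Under 20 alternatives to each of the 30 log2 fold changes of members, 546 values kept their direction, 54 reversed and none was called. Srsf2, Asxl1, Ezh2 and Stag2 in TKO versus WT, Asxl1 in δKO versus WT, and Tet2, Sf3b1, Srsf2, U2af1, Ezh2 and Stag2 in TKO versus δKO did not reverse in any. The cause of the reversals was not tested, and most concerned values within 0.2 of 0.

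Upper-quartile factors shifted the median of all genes by 0.14 in TKO versus δKO and −0.15 in δKO versus WT. With them Dnmt3a went to −0.0013 and Zrsr2 to −0.0061 in TKO versus WT, Dnmt3a to 0.079 in TKO versus δKO, and Dnmt3a to −0.081, Tet2 to −0.026 and Runx1 to −0.11 in δKO versus WT. With at least 10 counts in every library, Dnmt3a went to 0.015 in TKO versus δKO and to −0.0092 in δKO versus WT, where Runx1 went to −0.032. With genes detected as a covariate, Dnmt3a went to −0.059 and Zrsr2 to −0.16 in TKO versus WT, Dnmt3a to 0.093 and Runx1 to −0.062 in TKO versus δKO, and in δKO versus WT Dnmt3a to −0.15, Tet2 to −0.21, Sf3b1 to −0.066, Srsf2 to 0.0089, Zrsr2 to −0.062 and Stag2 to −0.0015. With voom quality weights, Sf3b1 went to 0.030 and Zrsr2 to −0.051 in TKO versus WT, and Runx1 to −0.051 in δKO versus WT.

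With the replicate block, which left out the unnumbered library, Zrsr2 went to −0.0014 in TKO versus WT, Dnmt3a to 0.37 and Runx1 to −0.22 in TKO versus δKO, and Dnmt3a to −0.35, Tet2 to −0.040 and Srsf2 to 0.16 in δKO versus WT. No call changed with the block. Deviations of same-numbered libraries from their genotype means correlated by −0.036 to 0.083, so the numbers were not taken to pair the libraries.

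With each library left out in turn, values in TKO versus WT ranged from −0.15 to 0.12 for Dnmt3a, −0.34 to 0.042 for Tet2, −0.11 to 0.074 for Sf3b1, −0.13 to 0.0024 for U2af1, −0.12 to 0.29 for Zrsr2 and −0.13 to 0.33 for Runx1. In TKO versus δKO they ranged from −0.23 to 0.25 for Dnmt3a, −0.73 to 0.049 for Asxl1, −0.73 to 0.19 for Zrsr2 and −0.20 to 0.30 for Runx1. In δKO versus WT they ranged from −0.24 to 0.22 for Dnmt3a, −0.0010 to 0.38 for Sf3b1, −0.21 to 0.12 for Srsf2, −0.024 to 0.45 for U2af1, −0.17 to 0.76 for Zrsr2, −0.16 to 0.22 for Runx1 and −0.051 to 0.43 for Ezh2. Values that kept their sign ranged in TKO versus δKO from −0.54 to −0.18 for Tet2, −0.40 to −0.024 for Sf3b1, −0.74 to −0.41 for Srsf2, −0.52 to −0.038 for U2af1 and −0.70 to −0.36 for Stag2. In δKO versus WT they ranged from 0.010 to 0.37 for Tet2 and 0.090 to 0.43 for Stag2, and in TKO versus WT from −0.26 to −0.060 for Ezh2 and −0.44 to −0.18 for Stag2. Without δKO 1, Asxl1, U2af1, Zrsr2, Runx1 and Ezh2 each reversed in at least 1 comparison with δKO, as did Dnmt3a, Sf3b1, Srsf2 and Runx1 without the unnumbered library.

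The median of the members in TKO versus δKO, −0.32, was −0.095 with genes detected as a covariate, −0.083 with voom quality weights, −0.16 with upper-quartile factors, −0.23 with at least 10 counts in every library and −0.43 with the replicate block. In δKO versus WT, the median of 0.19 was 0.0037, 0.053, 0.020, 0.092 and 0.23 with these. With each library left out these medians ranged from −0.44 to −0.13 and from −0.0071 to 0.31. The partner genes were refitted without each library after the data were seen. In TKO versus WT this gave −0.064 to 0.32 for Rbbp7, 0.063 to 0.30 for Aebp2, 0.063 to 0.27 for Sf3b2, −0.48 to −0.17 for Sf3b6, −0.19 to −0.0087 for Bap1, 0.34 to 0.78 for Ogt and 0.029 to 0.34 for Cbfa2t2. It gave −0.49 to −0.15 for U2af2 and −0.0085 to 0.30 for Ogt in TKO versus δKO, and 0.17 to 0.61 for Ogt in δKO versus WT. Genes called by edgeR in TKO versus WT, TKO versus δKO and δKO versus WT numbered 1, 0 and 1. With only the 2 genotypes compared they were 9 in TKO versus WT and 0 in δKO versus WT, with voom 12 in TKO versus WT, with DESeq2 on all 9 libraries 125, 552 and 191, and with DESeq2 on the genotypes compared 575, 267 and 194. With each library left out, 1 to 4 genes were called in TKO versus WT, the most without δKO 1. Of the 10 members, 3 kept their rank by level with the longest transcript as length.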
